A study of Mus musculus with 8 samples.

Results

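The genes described here are the protein-coding mouse genes whose symbol is exactly Zfp followed by a number, from Zfp600 to Zfp999, with Zfp683 left out. There were 140 of them among 52661 genes quantified in intraepithelial lymphocytes, of which 21817 were protein coding. The range was selected on measured values: Zfp871 and Zfp652 had shown some of the leading higher fold changes with osteopontin. The fold changes of that comparison are therefore given below as a description. Counts of members past a threshold of the fit over all genes are printed beside the share of all genes, and nothing is read from them. The symbols mark a naming range and not a functional class. Zfp783 and Zfp939 also fall in the range but had no transcript annotated as protein coding and are not members.

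Intraepithelial lymphocytes are the T cells, with a few other leukocytes, that lie between the epithelial cells of the gut. In this study such cells from C57BL/6 mice were sorted for the leukocyte antigen CD45 and cultured for 24 h in RPMI medium with 10% serum. The 4 osteopontin libraries (opn 1, 2, A and B) received 2 µg/ml osteopontin, a secreted phosphoprotein that binds integrins and CD44, and the 4 control libraries (null 1, 2, A and B) received none. The labels give no age and do not say whether libraries came from separate animals or cultures, nor what the names 1, 2, A and B stand for, so the spread given here is that between these libraries and may be technical. Values of 4 libraries are listed in the order 1, 2, A and B throughout.

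The libraries held 49108969 to 71399847 assigned reads. Levels are given as CPM (reads divided by library size, scaled by trimmed mean of M values), which suits the comparison of a gene between libraries, or as TPM, which also corrects for transcript length and is used to compare genes. A gene with 3 reads stood at 0.0420 to 0.0611 CPM, the limit that a count of 0 allows for counting error only. This limit and the marker values that follow use CPM without that scaling. All 10 markers of intraepithelial T cells, among them Ptprc, Cd3e, Cd8a and Itgae, were detected, with a summed level of 7174 to 8003 CPM. Markers of other cells differed between libraries. The 3 plasma cell markers summed to 2979 to 9290 CPM, above the T cell sum in opn A and null A. The sums of the 7 endothelial markers (58.9 to 128 CPM), the 6 macrophage and dendritic markers (76.6 to 161 CPM) and the 8 enterocyte markers (39.8 to 74.2 CPM) also varied. Most of each came from a single gene, Pecam1 (56.7 to 84.6 CPM), Itgax (66.8 to 125 CPM) and Epcam (37.7 to 48.4 CPM). The endothelial markers other than Pecam1 stood higher in opn B, null 2 and null B than in the rest. Cdh5 stood at 14.6 to 16.2 CPM in these libraries and at 0.176 to 2.19 CPM elsewhere. The 8 fibroblast markers reached a sum of 322 CPM in null 1 and 176 CPM in null A, against 6.75 to 25.5 CPM in the other 6 libraries. The 6 B cell markers summed to 285 CPM in opn B and to 520 to 817 CPM elsewhere. The 7 immediate-early and inducible stress genes summed to 31.4 to 41.7 CPM in opn 1, 2 and A, to 173 CPM in opn B and to 150.5 to 198 CPM in the null libraries. In bulk RNA, fewer cells of a type and less RNA per cell cannot be told apart.

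Most mouse genes named Zfp encode C2H2 zinc finger proteins. In such a finger a pair of cysteines and a pair of histidines hold a zinc ion, and the residues between them read the bases of DNA, so that a tandem array recognises a long site. Many of these proteins also carry an N-terminal KRAB domain, which recruits the corepressor Trim28 (KAP1) and through it the histone H3 lysine 9 methyltransferase Setdb1, the machinery known for silencing retrotransposons and imprinted regions. These genes sit in fast-evolving clusters of near relatives, and each is usually transcribed at a low level.

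The zinc finger pattern, read in frame in GENCODE M21 coding sequences as a cysteine codon, 2 to 4 codons, a cysteine codon, 12 codons, a histidine codon, 3 to 5 codons and a histidine codon, was present in 135 of the 140 members. Over all protein-coding genes with a coding sequence the share was 3.70%. The median member held 11 copies, and Zfp619 held the most, 33. A pattern of the KRAB A box was present in 90 members, or 64.3%, against 40.9% of the 193 genes named Zfp1 to Zfp599 and 1.45% of all protein-coding genes. Zfp871 held 15 fingers and the KRAB pattern, and Zfp652, a repressor known to bind the corepressor Cbfa2t3, held 7 fingers without it. A match of such a pattern is a description of the letters and not a shown DNA-binding or silencing function.

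Pairs of neighbouring fingers are shown for the 2 members that led to the choice of the range (Zfp871 and Zfp652), for Zfp740 with the highest TPM, for Zfp719 with the largest lower fold change among members of at least 5 CPM, and for Zfp809, known for silencing murine leukaemia proviruses in embryonic cells. Each is a coding stretch of 147 bases from GENCODE M21 on GRCm38, 5′ to 3′ on the coding strand, with the zinc-binding cysteine and histidine codons in capitals. The stretches lie at chr17:32775471-32775617 on the minus strand, chr11:95752965-95753450 on the plus strand, chr15:102208810-102209234 on the plus strand, chr7:43590016-43590162 on the plus strand and chr9:22238851-22238997 on the plus strand. Those of Zfp652 and Zfp740 join 2 exons, with the intron left out. All are exonic coding sequence.
Zfp871: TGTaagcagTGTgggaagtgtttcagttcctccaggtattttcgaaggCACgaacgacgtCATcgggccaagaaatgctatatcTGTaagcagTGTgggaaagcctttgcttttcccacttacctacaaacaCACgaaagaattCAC
Zfp652: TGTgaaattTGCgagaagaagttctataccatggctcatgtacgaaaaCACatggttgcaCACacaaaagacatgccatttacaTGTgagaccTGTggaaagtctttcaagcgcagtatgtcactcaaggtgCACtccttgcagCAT
Zfp740: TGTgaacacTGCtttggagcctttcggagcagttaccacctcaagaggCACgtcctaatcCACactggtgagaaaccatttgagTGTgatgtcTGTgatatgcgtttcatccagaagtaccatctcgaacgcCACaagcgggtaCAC
Zfp719: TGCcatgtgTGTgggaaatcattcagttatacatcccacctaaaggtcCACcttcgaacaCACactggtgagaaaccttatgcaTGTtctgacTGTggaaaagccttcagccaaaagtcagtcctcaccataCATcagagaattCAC
Zfp809: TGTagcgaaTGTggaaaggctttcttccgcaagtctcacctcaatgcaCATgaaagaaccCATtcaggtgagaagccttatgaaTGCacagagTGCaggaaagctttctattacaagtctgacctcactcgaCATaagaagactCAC
The capitals stand at the same 8 positions in all 5 stretches.

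The KRAB pattern of 3 of these members is shown because the pattern is shared by most of the set, although it is also common among Zfp1 to Zfp599. It runs over 14 codons, an acidic codon followed by a valine, leucine or isoleucine codon, then phenylalanine, then glutamate with tryptophan or cysteine, then leucine or methionine, all in capitals. The stretches lie in the coding exons at chr17:32777468-32777509 on the minus strand, chr7:43586372-43586413 on the plus strand and chr9:22235038-22235079 on the plus strand of GRCm38.
Zfp871: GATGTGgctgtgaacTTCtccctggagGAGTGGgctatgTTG
Zfp719: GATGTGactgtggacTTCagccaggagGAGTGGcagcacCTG
Zfp809: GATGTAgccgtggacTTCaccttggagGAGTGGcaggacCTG
Zfp652 and Zfp740 had no match to this pattern in any annotated coding transcript.

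Most members were detected in these sorted preparations. Which of the cell types in them held the transcripts cannot be told from bulk RNA. The median member stood at 9.40 TPM, 115 members (82.1%) reached a mean of 1 TPM and 66 (47.1%) reached 10 TPM. The genes Zfp1 to Zfp599 had a median of 11.7 TPM, and all protein-coding genes had a median of 1.68 TPM. Of all protein-coding genes, 52.9% reached 1 TPM and 38.6% reached 10 TPM. Among genes that passed the filter on low counts described below, members stood lower than protein-coding genes. The median there was 13.1 TPM over 125 members and 18.2 TPM over 13799 protein-coding genes. The members together took 0.412% to 0.429% of the reads of a library, and their TPM summed to 2364 to 2617. In 4 libraries with osteopontin this sum was 2498 ± 86.2 (SD, n = 4), and without it was 2450 ± 113 (SD, n = 4), a difference smaller than either SD. The sum includes members whose TPM moved with the reads given to very short transcripts, as described below. The members' share of reads was 0.424% ± 0.00681 with osteopontin and 0.418% ± 0.00707 without (SD, n = 4).

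**Figure D1:**
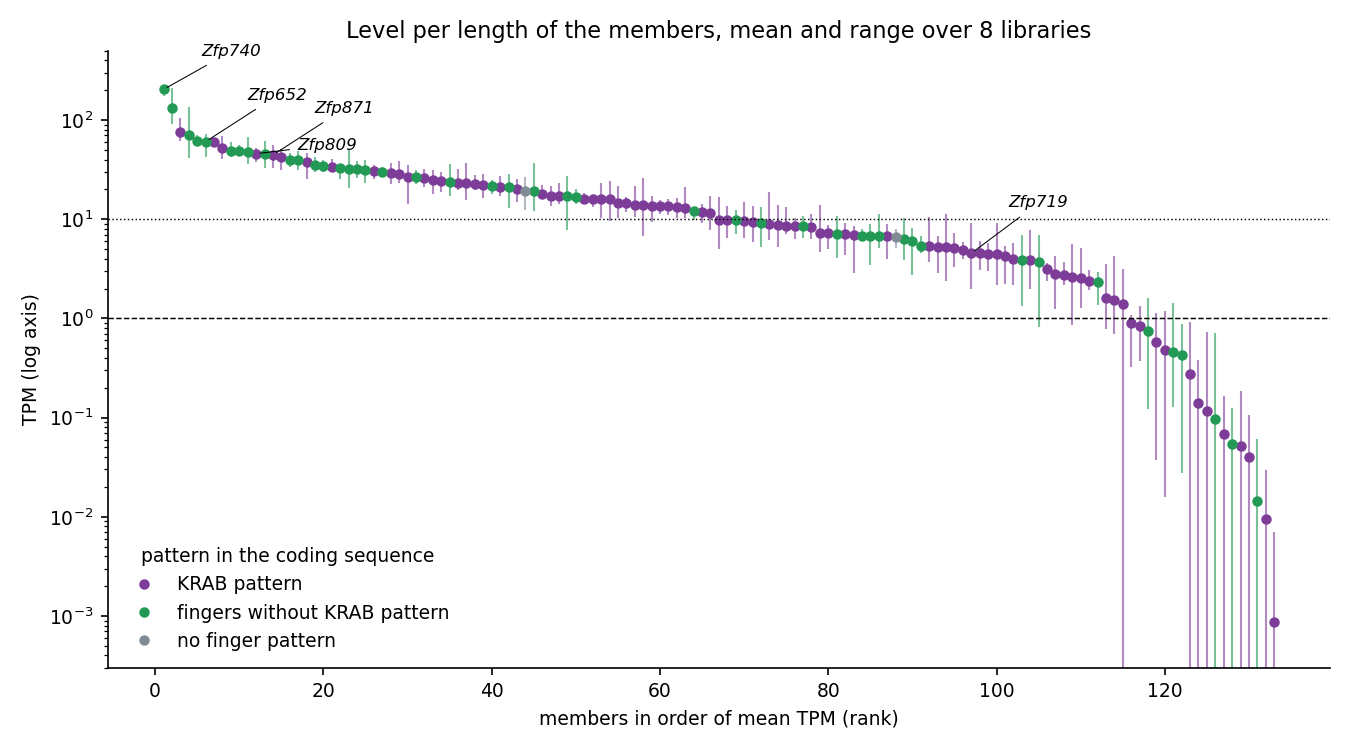
Mean level per length (points) and range over the 8 libraries (lines) of the 133 members with a read in some library, in order of mean TPM on a log axis, coloured by the pattern in the coding sequence, with dashed and dotted lines at 1 and 10 TPM. Zfp740 stands highest at 204 TPM, and 115 members lie at or above 1 TPM.

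A few genes carried much of the total. The 8 highest members held 29.0% of the summed TPM of the set and the 20 highest held 49.6%. Zfp740, which held only 2 fingers, stood highest, at 206, 212, 228 and 199.8 TPM with osteopontin and 192, 188, 175 and 228 TPM without, and the groups overlapped. Zfp706, a small protein known for restraining Klf4 as embryonic stem cells leave the pluripotent state, followed at a mean of 133 TPM. Next came Zfp945 (75.1), Zfp865 (70.9), Zfp646 (61.9), Zfp652 (60.6), Zfp869 (59.5) and Zfp950 (52.6), all as mean TPM. These 6 were close in level, and the range over libraries of each overlapped that of its neighbours in this order. Zfp871 stood at 44.5 TPM, rank 14.

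Members with fingers but no KRAB pattern stood higher than those with it, with a median of 18.0 TPM over 46 members against 8.60 TPM over 90. The same order held among Zfp1 to Zfp599, with 14.5 TPM over 114 genes and 9.50 TPM over 79. These are medians over genes of the same 8 libraries, given without a test. The remaining 4 members had neither pattern, and of these Zfp703, a corepressor of the NET family, stood highest at 19.2 TPM.

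The TPM of 2 leading members moved with the reads given to very short annotated transcripts. Zfp865 stood at 83.5, 51.8, 136 and 43.8 TPM with osteopontin and 54.6, 89.97, 65.7 and 41.6 TPM without, a far wider range than that of its CPM, 96.1 to 129. A noncoding Zfp865 transcript of 93 bases took 0.657% of the gene's reads in opn A, where the TPM was highest, and none in opn 2, opn B and null B, where it was lowest. For Zfp706 a 447-base coding transcript took 20.8% of the reads in null B and 5.84% to 10.8% in the other 7 libraries, and the TPM of null B was 211 against 90.8 to 141 elsewhere. Comparisons between groups below therefore use CPM.

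Salmon divides reads among a gene's annotated transcripts. Over the 118 members with at least 800 reads, a median of 99.1% of the reads fell on protein-coding transcripts, and 86 members had at least 90% there. Another 6 had less than 50%: Zfp688 (7.62%), Zfp934 (29.5%), Zfp938 (39.8%), Zfp956 (40.4%), Zfp865 (40.4%) and Zfp945 (42.6%), of which Zfp934, Zfp938 and Zfp956 are named here after their values were seen. Retained-intron transcripts took 72.8% of the Zfp688 reads, 57.4% of the Zfp945 reads and 48.2% of the Zfp865 reads. Transcripts annotated for nonsense-mediated decay took 60.2% of Zfp938, 57.9% of Zfp956 and 40.8% of Zfp950.

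**Figure D2:**
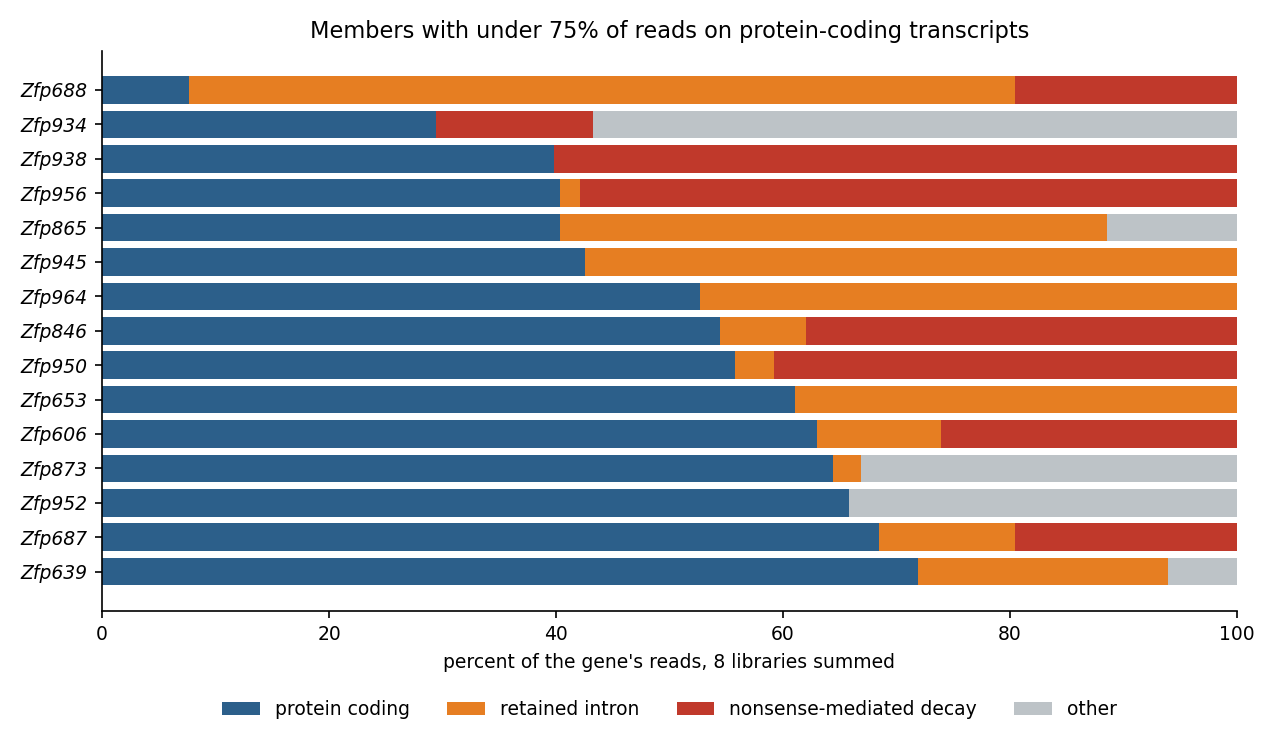
Share of the reads of each gene, summed over the 8 libraries, on transcripts annotated as protein coding, retained intron, nonsense-mediated decay or other, for the 15 members of at least 800 reads with under 75% on protein-coding transcripts. Zfp688 has the smallest coding share, 7.62%.

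Over these 118 members the coding share was higher with osteopontin in 30 and lower in 34, and the median difference per member was 0. The medians of the share were 99.6% with osteopontin and 99.1% without. Zfp945 had 41.6% ± 4.60 of its reads on coding transcripts with osteopontin and 43.8% ± 3.86 without (SD, n = 4). Zfp871 was almost wholly coding: its 5111-base transcript took 93.8% ± 4.03 of the reads with osteopontin and 89.8% ± 8.66 without (SD, n = 4). The 10433-base coding transcript of Zfp652 took 75.1% ± 4.96 and 76.2% ± 4.37, and its 3982-base decay transcript took 11.8% ± 2.46 and 10.8% ± 1.04.

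The comparison of 24 h with and without osteopontin addressed whether the cytokine changes transcription in these lymphocytes. Of the 140 members, 125 passed the filter on low counts, and 15 did not, with at most 73 reads in a library. Over the 125, 49 were fitted higher and 76 lower with osteopontin, and the median log2 fold change was -0.05. The median over all 18631 tested genes was 0.00, with 9335 higher and 9296 lower. Of the 13799 tested protein-coding genes 47.2% were higher, against 39.2% of the members. Over the 181 tested genes of Zfp1 to Zfp599 the median was -0.01, with 86 higher and 95 lower. The 95% interval of the fold change lay within 2-fold for 106 of the 125 members (84.8%) and within 1.5-fold for 73 (58.4%). Over all tested genes the shares were 54.6% and 43.3%. From a mean of 5 CPM they were 96.3% and 67.6% of the members, against 93.7% and 76.1% of all genes.

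No member passed the test of edgeR's quasi-likelihood fit at a Benjamini-Hochberg adjusted p of 0.05, and no gene of the whole table did (0%). The smallest adjusted p of a member in that edgeR fit was 1.00. At an unadjusted p of 0.05, 11 of 125 members (8.80%) passed, 5 higher and 6 lower, against 3.93% of all tested genes. The 4 libraries of one group lay wholly apart from those of the other in 8 members (6.40%), against 3.47% of all tested genes. DESeq2 called 2 of 127 members, Zfp871 and Zfp652, against 0.392% of all genes it tested. Within pairs of libraries of the same name, 14 members were higher with osteopontin in all 4 pairs and 12 were lower in all 4, together 20.8% against 15.4% of all tested genes. Because this same contrast chose the range, nothing is read from these shares.

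**Figure D3:**
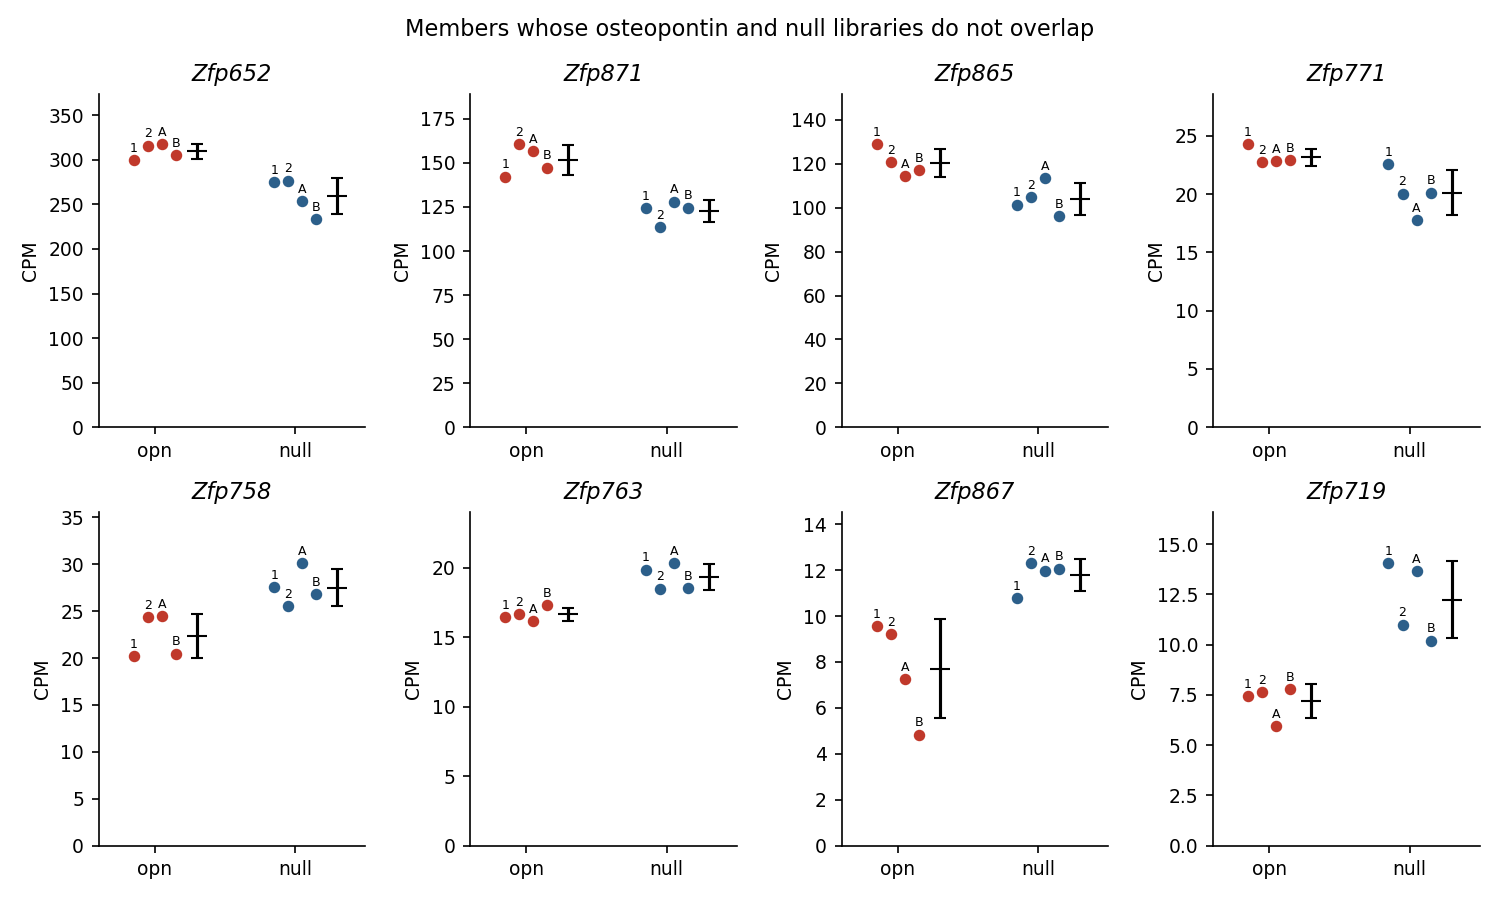
CPM of each library (points, named 1, 2, A and B) with group mean and SD (n = 4) for the 8 members whose osteopontin and null libraries do not overlap. Zfp652, Zfp871, Zfp865 and Zfp771 lie higher with osteopontin and Zfp758, Zfp763, Zfp867 and Zfp719 lower.

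Among members with the KRAB pattern, Zfp871 (chr17:32765496-32788287 on GRCm38, as all positions here) stood at 142, 161, 157 and 147 CPM with osteopontin and 124, 114, 128 and 125 CPM without. No null library reached the lowest osteopontin library. The means were 152 ± 8.44 and 123 ± 6.16 CPM (SD, n = 4), a log2 fold change of 0.31 (SE 0.07). Library opn B, in which the immediate-early genes stood at the level of the null libraries, kept its place with the other osteopontin libraries here. Without it the fold change was 0.32, and without null libraries 1 and A, the ones with fibroblast transcripts, it was 0.35. Zfp871 led to the choice of the range, so these values are a description. Whether the immediate-early genes or the fibroblast transcripts of those libraries play a part was not tested.

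Zfp719 (chr7:43579610-43593235) stood at 7.43, 7.63, 5.93 and 7.78 CPM with osteopontin and 14.1, 11.00, 13.7 and 10.2 CPM without, again with no overlap and in the opposite direction. Its log2 fold change was -0.77 (SE 0.22). Null libraries 1 and A were the highest, and without both the value was -0.56. Whether the fibroblast transcripts of those libraries play a part was not tested.

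Zfp867 (chr11:59461197-59472474) stood at 9.55, 9.22, 7.25 and 4.84 CPM with osteopontin and 10.8, 12.3, 11.97 and 12.1 CPM without, a log2 fold change of -0.61 (SE 0.24). Library opn B was the lowest, and the value was -0.30 in the libraries named by digits and -0.99 in those named by letters. Zfp758 (chr17:22361453-22377281) stood at 20.2, 24.3, 24.5 and 20.5 against 27.5, 25.5, 30.2 and 26.8 CPM, with a fold change of -0.30 (SE 0.13). Zfp763 (chr17:33016863-33033402), a neighbour of Zfp871, stood at 16.4, 16.7, 16.1 and 17.3 against 19.9, 18.5, 20.3 and 18.5 CPM, with -0.21 (SE 0.15). In both, the groups were separated by a gap smaller than the range within the null group.

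Zfp943, Zfp688 and Zfp606 overlapped between groups. Zfp943 stood at 31.5 to 35.7 CPM with osteopontin and 34.3 to 44.6 CPM without (log2 fold change -0.26, SE 0.12). Zfp688 had -0.28 (SE 0.13) and Zfp606 -0.28 (SE 0.12), and both turned to 0.64 and 0.26 when only protein-coding transcripts were summed. By Salmon's estimated division of reads, their lower level thus lay in those given to noncoding transcripts. For Zfp688 the coding value rests on 7.62% of the gene's reads. Whether the division itself differed between libraries was not tested.

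Among the members with fingers and no KRAB pattern, Zfp652 (chr11:95712673-95835115) stood at 299, 316, 317 and 306 CPM with osteopontin and 275, 277, 254 and 234 CPM without. The groups did not overlap, and null B was the lowest. The means were 309.6 ± 8.65 and 259.8 ± 20.3 CPM (SD, n = 4), a log2 fold change of 0.25 (SE 0.07). The value was 0.16 in the libraries named by digits and 0.35 in those named by letters. Phospho1 lies inside Zfp652 on the same strand and shares 11.6% of its 31-base words, but it took at most 1.95 CPM in any library.

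Zfp865 (chr7:5020376-5036768), with 20 fingers, stood at 129, 121, 114 and 117 CPM with osteopontin and 101, 105, 114 and 96.1 CPM without. Library opn A lay just above null A. The group means were 120.4 ± 6.25 and 104 ± 7.31 CPM (SD, n = 4) and the log2 fold change was 0.21 (SE 0.07). Zfp771 stood at 24.3, 22.7, 22.8 and 22.9 against 22.6, 20.03, 17.8 and 20.1 CPM, a fold change of 0.20 (SE 0.14) that turned to -0.05 when effective transcript lengths were taken into account. Zfp800 stood at 35.2, 47.1, 44.6 and 46.5 against 33.95, 37.01, 34.2 and 32.1 CPM (0.34, SE 0.12), with opn 1 inside the null range but above null 1, so that all 4 pairs of libraries of the same name were higher with osteopontin. Zfp628 stood at 37.8 to 47.8 against 33.7 to 37.9 CPM (0.23, SE 0.11), with a small overlap, and was higher in all 4 pairs.

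**Figure D4:**
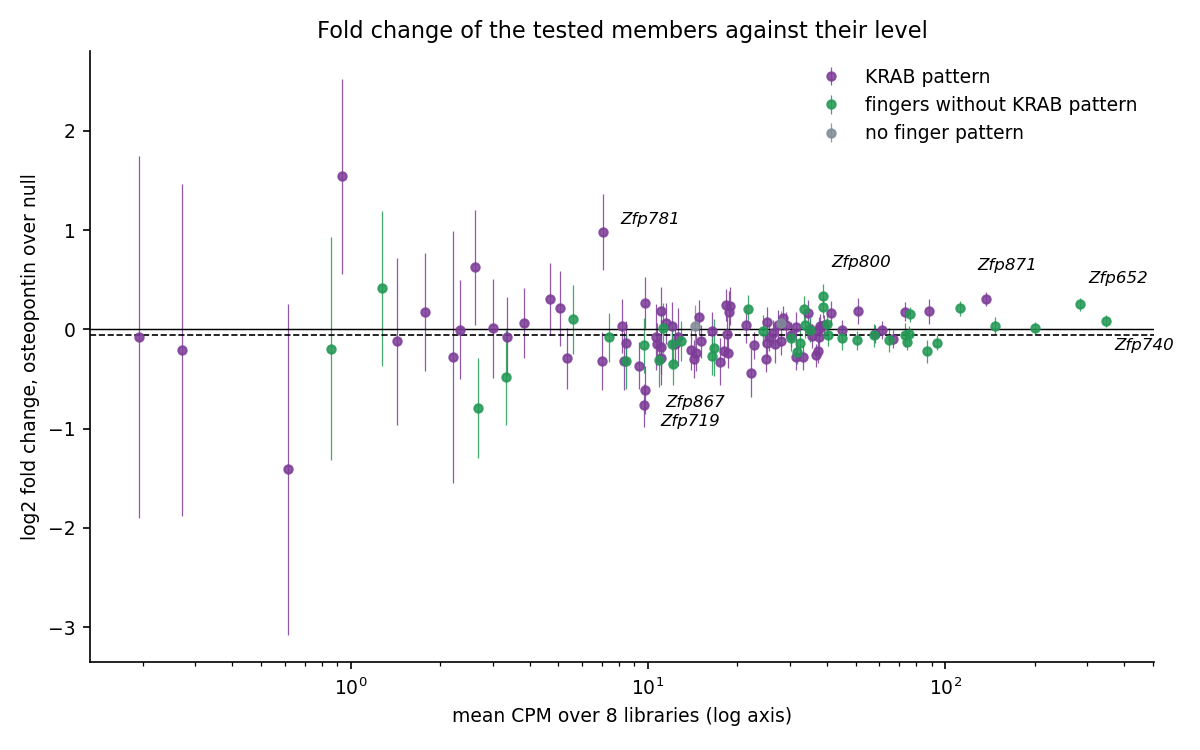
Log2 fold change with osteopontin (points, bars are SE) against mean CPM on a log axis for the 125 tested members, coloured by the pattern in the coding sequence, with a dashed line at the median of the members, -0.05. The spread widens toward low levels.

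Fold changes of the members showed no steady order over bins of level, but their rank correlation (Spearman) with mean CPM was positive. It was 0.23 over the 125 members and 0.33 over the 108 of at least 5 CPM. Over all tested genes the values were -0.03 and, from 5 CPM, 0.05. These are given without a test. The 6 members with a mean of at least 100 CPM all had a higher fitted level, but they include Zfp871 and Zfp652, whose fold changes chose the range. Of the 15 members between 50 and 100 CPM 4 were higher, of the 42 between 20 and 50 CPM 18 were, and of the 45 between 5 and 20 CPM 14 were. Over all tested genes the corresponding counts, from the highest level down, were 1407 of 2604, 1052 of 2192, 1369 of 2915 and 1398 of 2905. Of the 6, Zfp646 (0.01, SE 0.06) and Zfp831 (0.04, SE 0.08) were closest to 0 and changed sign in 5 and 4 of 20 alternative settings. Zfp740 had 0.08 (SE 0.06).

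The other members of high TPM did not separate the groups. Zfp706 stood at 88.4, 96.6, 77.3 and 59.5 CPM with osteopontin and 93.2, 95.4, 90.8 and 95.6 CPM without (-0.22, SE 0.12), and opn B was the lowest library. Zfp945 stood at 85.8, 92.1, 119 and 78.6 against 78.1, 75.9, 79.4 and 97.8 CPM (0.18, SE 0.12), with opn A and null B high in their groups. Zfp950 had 0.18 (SE 0.09) and Zfp869 -0.04 (SE 0.09). Zfp950 was higher with osteopontin in all 4 pairs of libraries of the same name and Zfp945 in 3 of 4, and Zfp706 was lower in 3 of 4. Without opn B the value of Zfp706 was -0.10, with effective lengths it was -0.46, and that of Zfp945 was 0.04 without opn A.

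Members with a known role in other settings are given next, whatever their values. Zfp809, the silencer of proviruses, stood at 40.3, 38.6, 38.9 and 40.7 CPM with osteopontin and 40.2, 35.6, 39.1 and 38.7 CPM without, a log2 fold change of 0.05 with a 95% interval of -0.17 to 0.26. Zfp644, which with Wiz brings the H3 lysine 9 methyltransferases Ehmt1 and Ehmt2 to chromatin, had -0.13 (-0.30 to 0.03). Zfp687, a partner of Zmynd8 and Zfp592, had 0.15 (-0.02 to 0.32). All 3 intervals lay within 1.5-fold.

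Zfp608, known for repressing the recombinase genes Rag1 and Rag2 in thymocytes, stood at 5.45 to 12.2 CPM over the 8 libraries (-0.16, SE 0.28), with opn B the lowest. Its paralog Zfp609, a binding partner of Nipbl and the Integrator complex, stood at 32.6 to 39.8 CPM (-0.01, SE 0.12). Each has a single finger. Zfp622, known from the maturation of the large ribosomal subunit, had -0.05 (SE 0.12), and Zfp830, a protein of the early embryo linked to splicing, had -0.23 (SE 0.12). For Zfp668, implicated in the DNA damage response, the value was 0.04 (SE 0.13). For Zfp703 it was 0.07 (SE 0.12) and for Zfp827, which recruits the NuRD complex to telomeres, 0.06 (SE 0.13). The reads of Zfp668 and Zfp646 may be hard to separate, because their spans overlap on opposite strands and the use of strand in the counting is not given in the sources used here.

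Zfp750, which drives differentiation of the epidermis, had no read in any library. Zfp711, an X-linked cofactor of the histone demethylase Phf8, had at most 3 reads in a library. Zfp750 is among 7 members with no read in any library, beside Zfp819, Zfp648, Zfp616, Zfp936, Zfp600 and Zfp957, which are named here after their values were seen.

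Near-identical relatives set a limit on several members. Of the 31-base words of a member's transcripts, a median of 2.24% also occurred in transcripts of another gene. The share was under 5% in 89 members, at least 20% in 21 and at least 50% in 6. These 6 were Zfp781 (97.7%), Zfp708 (95.6%), Zfp960 (89.2%), Zfp600 (87.3%), Zfp935 (67.5%) and Zfp747 (52.1%), of which Zfp600, Zfp935 and Zfp747 are named after their values were seen. For such genes the division of reads between copies is an estimate of Salmon.

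Zfp781 shared the largest part of its words with another gene. It had the largest higher fold change among members of at least 5 CPM, 0.98 (SE 0.38), from 5.23, 9.02, 8.87 and 14.5 CPM with osteopontin and 2.33, 4.21, 4.40 and 8.10 CPM without. The groups overlapped, while within pairs of libraries of the same name it was higher with osteopontin in 4 of 4. Another gene, ENSMUSG00000094622.2, shares 97.0% of its 31-base words and stood at 5.78, 8.14, 3.29 and 2.79 CPM with osteopontin and 9.45, 10.2, 7.07 and 13.1 CPM without, the opposite order. The sum of both was 11.01, 17.2, 12.2 and 17.3 CPM with osteopontin and 11.8, 14.4, 11.5 and 21.2 CPM without. The groups of sums overlapped, the sum was higher in 2 of 4 pairs, and the log2 ratio of their means was -0.03 against 0.98 for Zfp781 alone. Whether both genes changed in opposite directions or the division of reads between them differed was not tested.

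**Figure D5:**
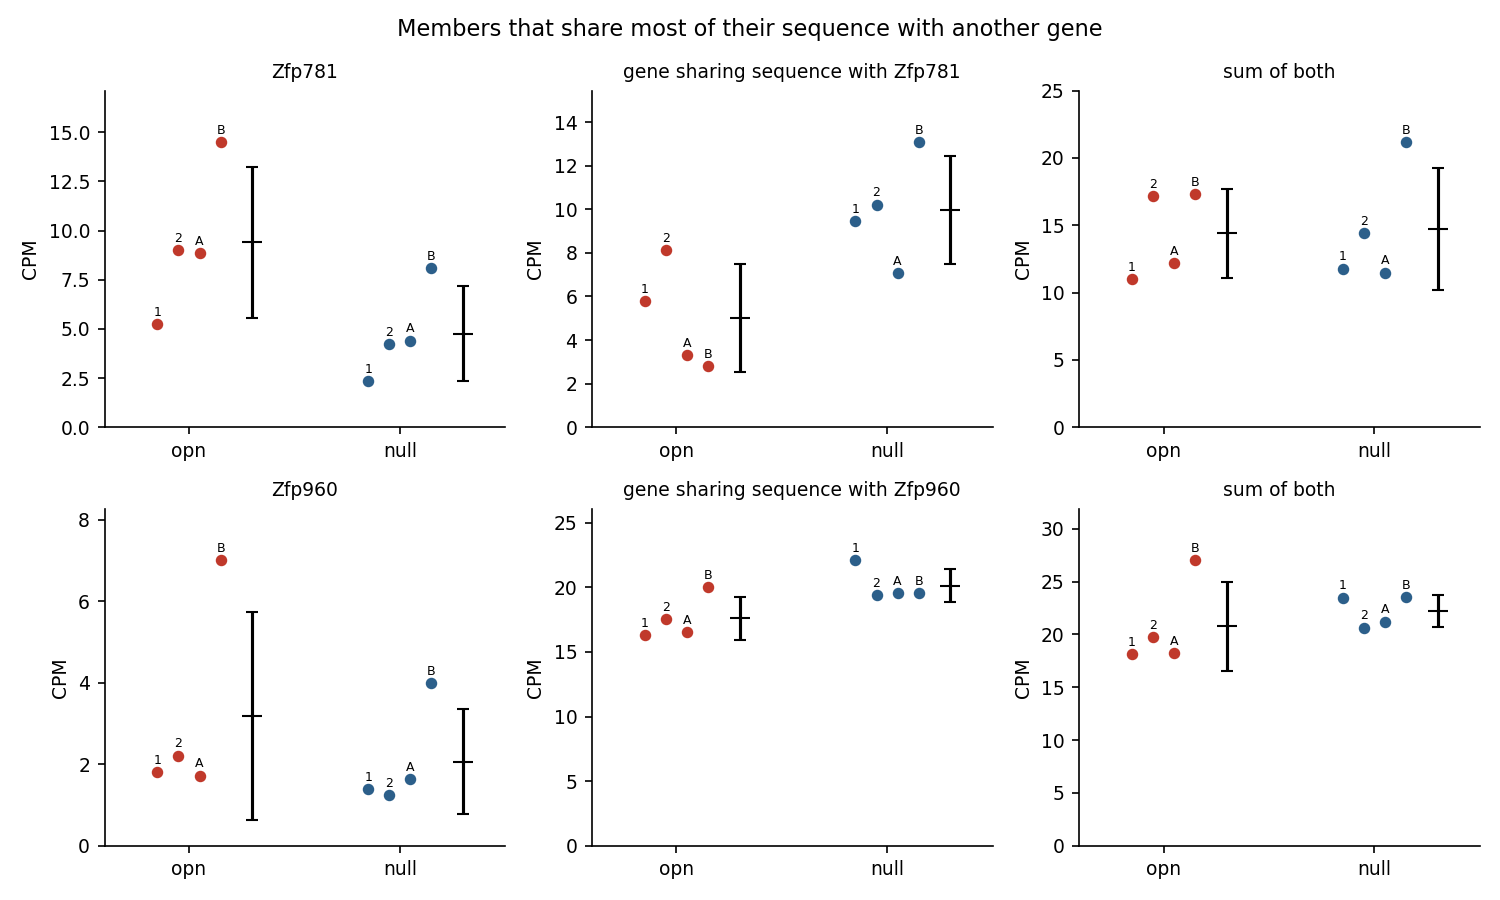
CPM of each library (points, named 1, 2, A and B) with group mean and SD (n = 4) for Zfp781 (upper row) and Zfp960 (lower row), for the gene that shares most of the sequence of each, and for the sum. The ratio seen for Zfp781 alone is not seen in the sum, where the group means are 14.4 and 14.7 CPM.

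Zfp960, Zfp708, Zfp651 and Zfp820 had the widest spread between libraries of a group among members of at least 1 CPM. Zfp960 stood at 1.80, 2.21, 1.72 and 7.01 CPM with osteopontin and 1.39, 1.24, 1.64 and 3.99 CPM without, with both B libraries high and all 4 pairs higher with osteopontin. Its fitted fold change of 0.63 was -0.11 without opn B. Summed with Zfp97, which shares 86.8% of its words, it stood at 18.1, 19.8, 18.2 and 27.01 and 23.5, 20.6, 21.2 and 23.5 CPM, and the log2 ratio of means turned from 0.62 to -0.10. Zfp708, known for repressing RMER19B retrotransposons, stood at 1.79, 1.40, 4.42 and 0.363 CPM with osteopontin and 0, 1.90, 2.86 and 4.91 CPM without. It was listed at 0 in null 1, where its near copy stood at 5.62 CPM, and the sum of both in the null group was 5.66 ± 0.554 CPM (SD, n = 4), a smaller spread than that of either gene. In the osteopontin group the sum was 6.59 ± 2.05 CPM (SD, n = 4), a wider spread than that of either gene, and the log2 ratio of means turned from -0.28 for Zfp708 alone to 0.22 for the sum. Zfp651, a close relative of Zfp652, stood at 0.221 to 2.25 CPM, and Zfp820 at 0.0920 to 2.68 CPM, both with overlapping groups.

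The members were spread over 19 chromosomes, with 32 on chromosome 7, 21 on chromosome 17 and 16 on chromosome 8, together 69. Joining members less than 500 kb apart gave 21 clusters that held 86 of them. The largest, of 13 members between 21383748 and 22867134 on chromosome 17, had the KRAB pattern in all 13, and 6 were higher and 7 lower in fitted level, with a median of 0.00. Zfp758 and Zfp943 lie in it beside Zfp945, whose fold change had the opposite sign.

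The cluster of Zfp871, 268 kb on chromosome 17, held 6 tested members, all with the KRAB pattern. Their log2 fold changes were 0.31 for Zfp871, 0.17 for Zfp811, 0.17 for Zfp799, 0.16 for Zfp952, -0.29 for Zfp870 and -0.21 for Zfp763. Neighbours thus pointed both ways. On chromosome 7 the cluster of Zfp719 held Zfp715 (-0.01) and Zfp658 (-0.15), and its other 2 members, Zfp936 and Zfp819, had no read. Zfp628 and Zfp865 share a cluster with Zfp784 (-0.08), and Zfp771, Zfp688, Zfp668 and Zfp646 lie in a cluster of 9 with 3 higher and 6 lower. The genes given here only as neighbours were not chosen for their values.

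Cofactors of KRAB zinc finger silencing were described from a list of 34 genes, of which 33 were found and tested. By edgeR 0 passed the adjusted threshold, 2 had an unadjusted p below 0.05, against 3.93% of all tested genes, and DESeq2 called none, against 0.392%. Of the 33, 16 were higher and 17 lower, with a median of 0.00, against 0.00 over all tested genes. Trim28, the corepressor that KRAB domains bind, stood at 255, 209, 254 and 258 CPM with osteopontin and 209.7, 240.3, 253 and 254 CPM without (0.03, SE 0.08). Setdb1, the methyltransferase it recruits, stood at 70.95, 67.3, 70.5 and 70.8 and 69.05, 69.7, 78.3 and 62.5 CPM, with group means of 69.9 ± 1.75 and 69.9 ± 6.47 CPM (SD, n = 4). The groups overlapped for both.

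The other cofactors named had the smallest unadjusted p of the list. Atrx, a remodeller that places histone H3.3 with Daxx, stood at 384, 427, 469 and 451 CPM with osteopontin and 390.5, 358, 423 and 370.4 CPM without (0.17, SE 0.07), with a partial overlap. Atf7ip2, a relative of the Setdb1 partner Atf7ip, was at or near the limit of detection with osteopontin, at 0 to 0.0702 CPM, and stood above it without, at 0.293 to 0.629 CPM. The groups did not overlap, and the fitted log2 fold change of -4.10 (SE 1.77) rests on few reads and on the prior count of the fit. Morc3, an ATPase linked to H3 lysine 9 methylation, had 0.12 (SE 0.07). Hdac1, a histone deacetylase of the NuRD complex, had -0.14 (SE 0.08), with null B at 208 CPM and the other null libraries at 164 to 166 CPM.

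Libraries of a group were also set against each other. Of the 120 tested members with a mean of at least 1 CPM, 0 were over 2-fold higher in null 1 and A, the libraries with fibroblast transcripts, than in null 2 and B, and 1, Zfp708, was over 2-fold lower, against 6.28% of all tested genes of that level in either direction. Against the mean of the other 3 libraries of its group, opn B had 5 of the 120 over 2-fold higher and 5 over 2-fold lower (8.33%), and null B had 5 and 4 (7.50%). The shares of the other 6 libraries were 0.833% to 4.17%. Over all 13815 tested genes of that level the share was 13.5% in opn B, 11.9% in null B and 5.44% to 8.35% in the other 6, so both B libraries stood furthest from their groups among members and among all genes. The median of the members' log2 CPM, each centred on its own mean over the 8 libraries, was -0.03, -0.02, 0.00 and 0.00 in the osteopontin libraries and -0.01, 0.00, 0.03 and 0.12 in the null libraries. The groups overlapped, null B was the highest, and the median fold change of the members was -0.02 without null B.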

How the data were processed

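Total RNA of 8 libraries, 4 with and 4 without osteopontin, was quantified by the authors with Salmon, per the submitters' processing notes. The sources used here do not give its version, the annotation build or any use of strand, although the labels' protocols name a stranded Illumina kit. The deposited tables hold, per transcript, an estimated count of reads, TPM, and length with effective length, per the file headers. Of 133618 transcripts, 131233 matched GENCODE M21 (GRCm38) in identifier and version, all with the same length, so positions and coding sequences are from that annotation. A gene that repeats the symbol Zfp865 under another identifier was left out.

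From these, estimated counts were summed per gene, rounded, filtered with filterByExpr (minimum count 10), scaled by trimmed mean of M values and fitted with edgeR 4.0.16 (quasi-likelihood, robust, group only, R 4.3.3), with Benjamini-Hochberg adjustment over 18631 genes and a threshold of 0.05. The SE is the fold change over the square root of F. CPM uses the scaled library sizes. DESeq2 1.42.0 and limma 3.58.1 were alternatives. Tested on simulated data with known changes, the edgeR fit recovered most 2-fold changes, and the share of false ones among its calls lay above the nominal threshold in each of 10 draws. The recovery of 2-fold changes does not carry over to smaller ones, such as those of Zfp871 and Zfp652.

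The members, lists and alternatives were chosen with earlier results of these data known. Named members were Zfp871 and Zfp652, the 8 of highest mean TPM, up to 6 per direction of smallest unadjusted p and every member without overlap (each from 5 CPM), the 4 of widest spread (from 1 CPM) and those of known role, with 6 silencing cofactors. No protein table was at hand, so finger and KRAB patterns were read as codons in frame in all coding transcripts of a gene.

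Libraries of the same name deviated together, though weakly. The correlations of deviations from the group means were 0.12 for 1, 0.20 for 2, 0.14 for A and 0.16 for B over 10819 genes. Each was the highest with its own name, and those between different names were -0.15 to 0.05. The names may therefore pair the libraries. What a name stands for is not given in the labels. The SE, intervals and p of the results come from the edgeR fit without this pairing. With the names as a block no gene was called either. Counting precision is set by the depth of 49108969 to 71399847 reads. Alternatives were other tests, scaling, filters, transcript sums, pairing and left-out libraries.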

Additional observations from a re-analysis of the deposited data

Results flagged for a closer look

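Each of 90 groups of 4 libraries was checked for a library far from the other 3, which chance gives in about 1 in 20 groups, and 8 values stood out.
Zfp960 stood at 7.01 CPM in opn B against 1.72 to 2.21 in the other osteopontin libraries, and at 3.99 CPM in null B against 1.24 to 1.64 in the other null libraries. Zfp945 stood at 97.8 CPM in null B against 75.9 to 79.4. Hdac1 stood at 208 CPM in null B against 164 to 166. Zfp711 stood at 0.0610 CPM in opn B, which is 3 reads, and at 0 in the other osteopontin libraries. Of the 8 values, 5 thus fell in the libraries named B. Zfp771 stood at 24.3 CPM in opn 1 against 22.7 to 22.9. Trim28 stood at 209 CPM in opn 2 against 254 to 258, and Setdb1 at 67.3 CPM in opn 2 against 70.50 to 70.95.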

How the results depend on the processing

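Over 20 alternatives the median fold change of the members ranged from -0.08 to -0.02 and was negative in each. No member was called in 19 of them, and DESeq2 called 2. Over all genes, 0 were called in 11 alternatives, including limma voom and the fit with a replicate block. DESeq2 called 80 genes, edgeR without a filter 4, without both B libraries 49, and leaving out 1 library gave 0 to 37, the 37 without opn B. In the 4 libraries named by digits 16 genes were called and in those named by letters 1, alternatives chosen after seeing the data. The cause of these differences was not tested.
With pairing by library name (the replicate block) the member median was -0.05, Zfp871 had 0.31 and Zfp652 0.26, and no call changed. The member median was -0.03 without opn 1, without opn 2 and with protein-coding transcripts only, and -0.02 without null B and without both B libraries.
Of 41 named genes with a fit, 23 kept the sign in all 20 alternatives and 18 changed it in some. Zfp800 had 0.22 in the libraries named by digits, and Zfp763 -0.40 with effective lengths. The median share of reads on coding transcripts was 96.3% when TPM was summed in place of reads (99.1%), and the median count of fingers was 10 with exact spacing in place of 11. Members under 5 CPM were least precise: 2 of 17 had a 95% interval within 2-fold, beside a median SD within groups of 0.86 on the log2 scale, and the part of depth in this was not tested. Sums with a near copy were chosen after seeing the data.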
